A study of Homo sapiens with 12 samples.

Results

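The respiratory chain genes described here are the protein-coding rows whose names begin with NDUFA, NDUFB, NDUFC, NDUFS, NDUFV, UQCR, ATP5, COX4, COX5, COX6, COX7, COX8, MT-ND, MT-CO, MT-CYB or MT-ATP, together with SDHA, SDHB, SDHC, SDHD and CYC1. The rule found 113 genes among 58735 rows of the count table, of which 19951 are protein-coding. Nuclear DNA carries 100 of them and mitochondrial DNA carries 13. The nuclear genes comprise 7 core and 31 other subunits of complex I, 8 complex I assembly factors with NDUFAF names, 4 genes of complex II, 10 of complex III, 19 of complex IV and 21 of complex V. NDUFA4 and its paralogue NDUFA4L2 are placed with complex IV, since the NDUFA4 protein is a subunit of that complex.

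The respiratory chain passes electrons from NADH through complex I, or from succinate through complex II, to coenzyme Q, then through complex III and cytochrome c to complex IV, which reduces oxygen. Complexes I, III and IV pump protons across the inner mitochondrial membrane, and complex V, the ATP synthase, uses the returning protons to make ATP. Complex II is encoded wholly in the nucleus, while the other complexes combine nuclear subunits with proteins made from mitochondrial DNA, whose genes are transcribed as long RNAs that are cut into single messages and polyadenylated.

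RNA-seq was done on KHM-5M and TTA-1, established human lines of anaplastic thyroid carcinoma, a dedifferentiated thyroid cancer. KHM-5M carries BRAF V600E and was grown in RPMI-1640, and TTA-1 is BRAF wild type and was grown in DMEM, both with 10% fetal bovine serum. Cells in 6-well plates received 1 µM GDC-0994, an inhibitor of the kinases ERK1 and ERK2 at the end of the MAPK pathway, or the vehicle DMSO, for 24 hours. The 4 groups, with 3 libraries each, are therefore KHM-5M GDC-0994, KHM-5M DMSO, TTA-1 GDC-0994 and TTA-1 DMSO. Each line is 1 line of its genotype, so line, genotype and medium cannot be told apart. The labels do not say that replicates came from separate cultures, so p-values measure only the spread between these libraries. In bulk RNA, fewer cells of a kind and less RNA per cell cannot be told apart.

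The libraries held 14952970 to 18389915 counts. Of 7 thyroid follicular markers, only PAX8, a thyroid transcription factor, reached 1 FPKM (fragments per kilobase of gene length, scaled to library size) in any library, with group means of 16.3 and 28.0 FPKM in KHM-5M GDC-0994 and KHM-5M DMSO and 0.478 and 0.471 FPKM in TTA-1 GDC-0994 and TTA-1 DMSO. Thyroglobulin reached at most 0.0116 FPKM. Of the markers for other cells, 3 of 4 epithelial and 2 of 2 mesenchymal genes reached 1 FPKM, as did 1 of 4 blood markers (CD14, at most 1.36 FPKM), but none of the endothelial, melanocytic, C cell or muscle markers. Among 10 MAPK output genes, a list chosen with earlier results of these data known, 9 fell and EPHA4 rose in KHM-5M (median log2 fold change -2.80). In TTA-1 8 of them fell (median -0.89). Of all genes tested, 25.1% fell and 24.6% rose in KHM-5M, and 2.24% fell and 1.18% rose in TTA-1. The TTA-1 DMSO replicates 1 and 2 stood apart: 22 of 103 tested respiratory genes differed more than 1.5-fold between them, 18 of these being higher in replicate 1, while the other pairs of replicates had 0 to 13 such genes. Across 16211 genes, deviation from the group mean correlated with gene GC content at r = 0.44 in TTA-1 DMSO replicate 1 and -0.46 in TTA-1 DMSO replicate 2, and at r = 0.33 in KHM-5M GDC-0994 replicate 1 and -0.30 in KHM-5M GDC-0994 replicate 3. The part of these shifts in the results was not tested beyond fits without each library and with the GC trend removed.

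Messages from the 13 mitochondrial genes outweighed those from the 100 nuclear respiratory genes. The 13 mitochondrially encoded genes took 3.38% ± 0.287 of all counts in KHM-5M GDC-0994, against 2.66% ± 0.218 in KHM-5M DMSO, and 3.91% ± 0.360 in TTA-1 GDC-0994, against 3.72% ± 0.194 in TTA-1 DMSO (SD, n = 3 each). The 100 nuclear genes together took 1.06% ± 0.0502 in KHM-5M GDC-0994, against 1.12% ± 0.0115 in KHM-5M DMSO, and 0.914% ± 0.00405 in TTA-1 GDC-0994, against 0.937% ± 0.0522 in TTA-1 DMSO. Counts from the mitochondrial genes were thus 3.21 ± 0.421 times those from the nuclear genes in KHM-5M GDC-0994, against 2.38 ± 0.210 times in KHM-5M DMSO. The lowest KHM-5M GDC-0994 library had a ratio of 2.88 and the highest KHM-5M DMSO library 2.61, so the groups did not overlap. In TTA-1 the ratios of 4.28 ± 0.379 with GDC-0994 and 3.99 ± 0.403 with DMSO overlapped. The ribosomal and transfer RNA rows of the mitochondrial genome moved with the messages in KHM-5M, at 0.667% ± 0.0501 of counts in KHM-5M GDC-0994, against 0.433% ± 0.00379 in KHM-5M DMSO, without overlap. In TTA-1 they were at 0.582% ± 0.0657 with GDC-0994 and 0.609% ± 0.0518 with DMSO. The part of RNA selection or quality in the mitochondrial rise was not tested. These shares describe the libraries and were given no test.

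**Figure D1:**
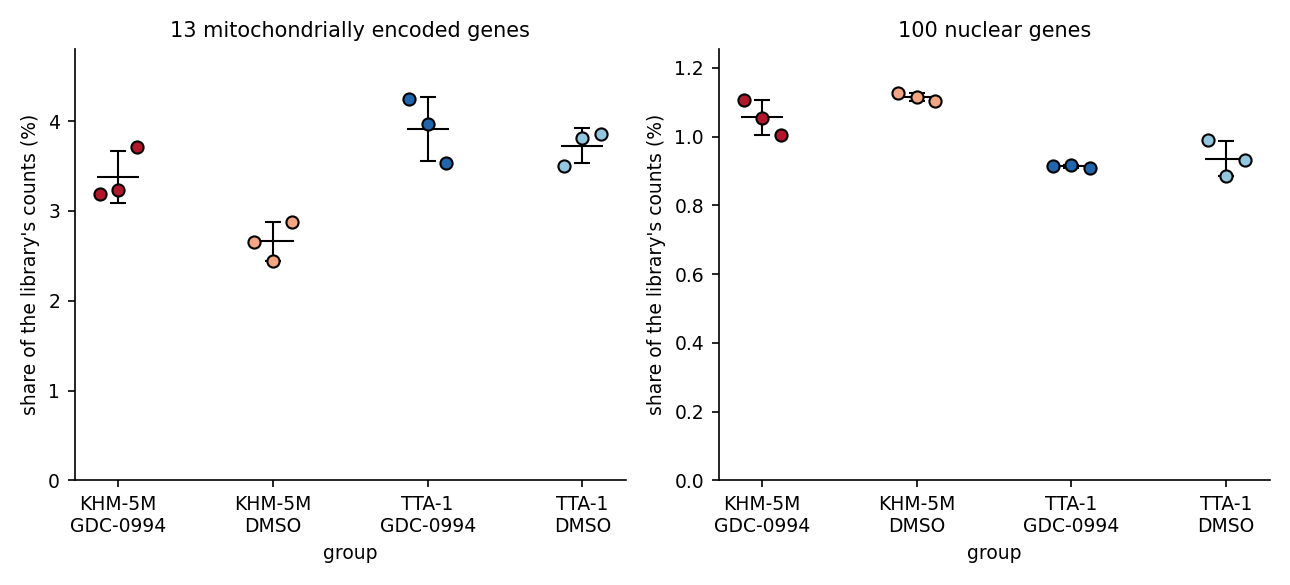
Share of all counts (percent) taken by the 13 mitochondrially encoded and by the 100 nuclear respiratory genes in each library, by group; points are libraries, long horizontal lines are group means and whiskers are SD. The mitochondrial share averaged 3.38% in KHM-5M GDC-0994 against 2.66% in KHM-5M DMSO, without overlap, while the nuclear share averaged 1.06% against 1.12%.

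Among the 103 genes with enough counts to be tested, the mean level over the 12 libraries had a median of 1791 FPKM for the 13 mitochondrial genes. It had a median of 32.0 FPKM for 80 nuclear genes and of 6.73 FPKM for the 10 nuclear genes that share over 50% of their coding bases with exons of other genes. How fragments shared by several genes were counted is not given in the sources used here, so levels of genes such as NDUFA13, NDUFV2, NDUFB8 and UQCR11 are uncertain. The 10 untested genes had at most 0.396 FPKM in any library. They include COX4I2, COX6A2, COX6B2, COX7A1, COX7B2 and COX8C, the isoforms of complex IV subunits known from lung, muscle or testis, the read-through genes NDUFC2-KCTD14 and ATP5MF-PTCD1, the ATP5MG copy ATP5MGL, and NDUFA7, which shares 78.3% of its coding bases. COX6A2, COX7B2 and NDUFC2-KCTD14 had no count in any library, which allows up to 3 counts, or 0.163 to 0.201 CPM depending on the library.

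In KHM-5M, messages from the mitochondrial genome mostly rose with GDC-0994, while more of the nuclear ones fell than rose. A gene was called where the edgeR quasi-likelihood test, adjusted by Benjamini-Hochberg over 16218 genes, gave p below 0.05, and a gene is said to have risen or fallen where it was called. Statements below that the libraries of 2 groups were separate describe genes named mostly for their calls, and add no support to those calls. The share of all genes with separate groups was not counted. Of the 90 tested nuclear genes, 6 rose and 25 fell, with a median log2 fold change of -0.11. Of the 13 mitochondrial genes, 8 rose and 1 fell, with a median of 0.33. Over all genes tested, 24.6% rose and 25.1% fell, with a median of 0.017, beside 6.67% and 27.8% of the nuclear genes and 61.5% and 7.69% of the mitochondrial genes. The nuclear median ranged from -0.13 to -0.044 and the mitochondrial median from 0.32 to 0.40 over 14 alternative analyses of all libraries. With 1 library left out they ranged from -0.15 to -0.039 and from 0.27 to 0.41, the nuclear median being -0.039 without KHM-5M GDC-0994 replicate 3 and -0.067 without KHM-5M DMSO replicate 2. The count of 26 falling genes rests in part on single libraries: it was 14 without KHM-5M GDC-0994 replicate 3 and 15 without KHM-5M DMSO replicate 1, while the count of 14 rising genes stayed between 12 and 14 without any 1 library. Scaling changed the split, with 20 higher and 19 lower under upper quartile scaling and 18 higher and 21 lower under library totals.

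**Figure D2:**
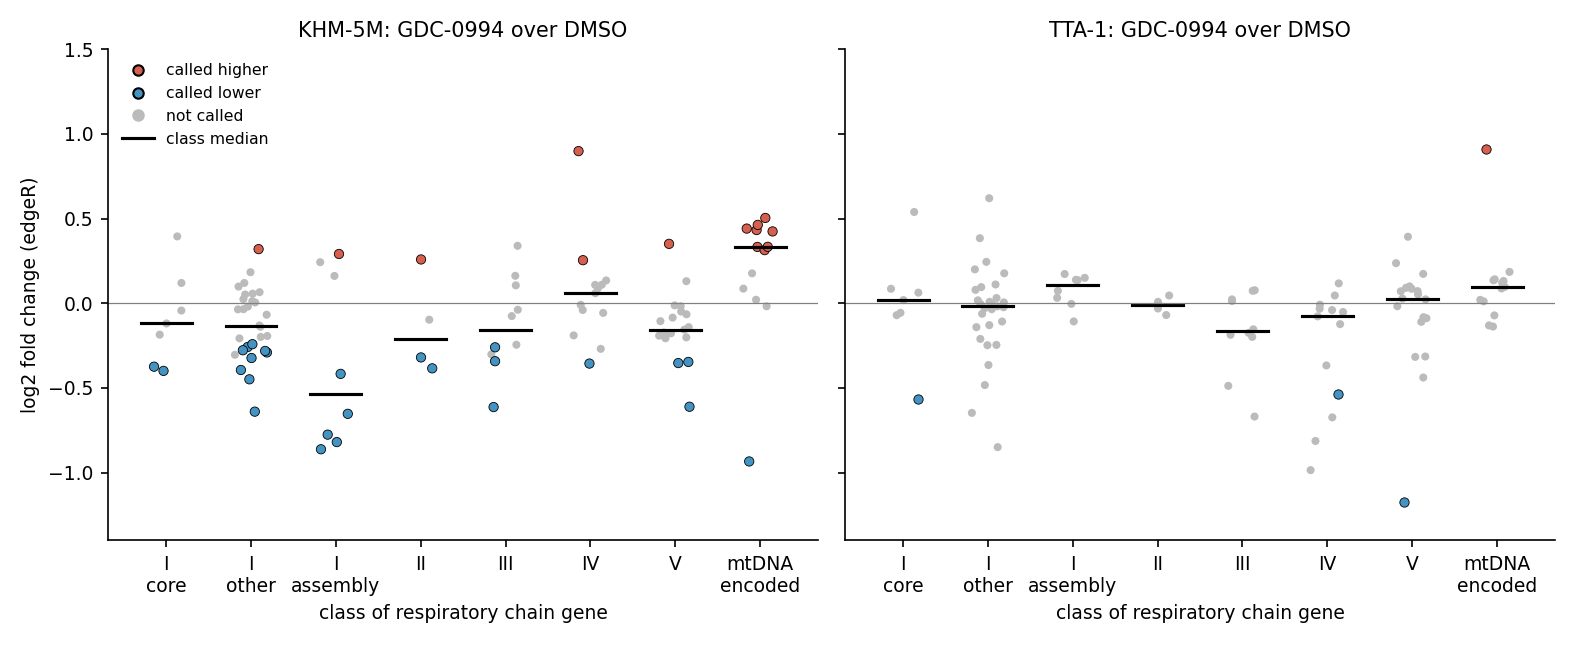
Log2 fold change of GDC-0994 over DMSO for each tested respiratory gene, by complex and genome, in KHM-5M and in TTA-1; red and blue points were called higher or lower at an adjusted p below 0.05, grey points were not called, and horizontal bars mark class medians. In KHM-5M the complex I assembly factors have the lowest class median (-0.53) and the mitochondrially encoded genes the highest (0.33), while in TTA-1 the class medians lie between -0.16 and 0.11.

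Promoter sequences were read for the nuclear genes, since several activators of respiratory genes bind there. In the RefSeq promoter table (GRCh38.p14), 80 of the 100 genes had an entry, and the 250 bases before the start were searched on both strands for 5 motifs. The NRF1 motif, GCGCATGC, was present in 12 of the 80 (15%), against 3.70% of 15843 protein-coding promoters. The motif of ETS factors including GABP, CCGGAAGT, was present in 10 (12.5%), against 5.09%, and the cyclic AMP response element, TGACGTCA, in 4 (5%), against 2.32%. The YY1 motif, AAGATGGCG, was present in 1 (1.25%), against 0.751%, and the ESRRA motif, TCAAGGTCA, in 0, against 0.215%. Of the 12 genes with the NRF1 motif, 3 fell in KHM-5M, and of all 80 matched genes 20 fell, while none of the 10 with the ETS motif fell or rose. Of the 4 with the cyclic AMP response element, 1 fell and 3 were not called. The reverse complement of the NRF1 motif overlaps the motif itself, so 1 stretch can match on both strands. A match says only that the letters are present.

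The stretches below, each 60 bases outside annotated exons and written 5′ to 3′ on the gene's strand, show how these motifs sit in promoters of the chain's genes, with the motif in capitals. ATP5MC1 fell in KHM-5M and holds the cyclic AMP response element (chr17:48892704-48892763, plus strand).
ATP5MC1: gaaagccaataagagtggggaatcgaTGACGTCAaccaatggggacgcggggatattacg
SDHB fell in KHM-5M, and COX6A1, COX5B and NDUFB4 were not called there (log2 fold changes of -0.19, -0.040 and -0.068), and all 4 hold the NRF1 motif (chr1:17054199-17054258, minus strand, and chr12:120437869-120437928, chr2:97645900-97645959 and chr3:120596152-120596211, plus strand).
SDHB: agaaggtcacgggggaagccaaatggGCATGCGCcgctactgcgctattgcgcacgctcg
COX6A1: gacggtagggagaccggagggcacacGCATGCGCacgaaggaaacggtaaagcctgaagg
COX5B: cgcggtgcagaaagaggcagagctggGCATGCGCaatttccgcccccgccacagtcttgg
NDUFB4: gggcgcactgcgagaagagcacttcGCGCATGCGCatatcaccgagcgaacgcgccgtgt
UQCR11 and ATP5PD, neither of them called in KHM-5M (-0.076 and -0.20), hold the ETS motif (chr19:1605546-1605605 and chr17:75047038-75047097, minus strand).
UQCR11: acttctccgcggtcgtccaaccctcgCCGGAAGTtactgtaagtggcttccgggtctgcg
ATP5PD: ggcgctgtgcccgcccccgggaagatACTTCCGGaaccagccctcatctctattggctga
NDUFAF4, the assembly factor with the largest fall, holds none of the 5 motifs in the window searched, and its last bases before the start are shown for comparison (chr6:96897892-96897951, minus strand).
NDUFAF4: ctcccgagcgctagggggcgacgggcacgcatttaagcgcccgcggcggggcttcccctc

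The complex I assembly factors, chaperones that build the enzyme and are absent from the finished complex, had the lowest median of any class in KHM-5M. Of 8 tested, NDUFAF2, NDUFAF4, NDUFAF5, NDUFAF6 and NDUFAF8 fell, NDUFAF7 rose, and NDUFAF1 and NDUFAF3 were not called (median log2 fold change -0.53). Thus 62.5% fell and 12.5% rose, beside 25.1% and 24.6% of all genes. NDUFAF4 (ENSG00000123545, chromosome 6, 96889313 to 96897881, GRCh38), an early factor that works as a partner of NDUFAF3 and whose promoter stretch above holds no motif, had 4.21, 2.99 and 3.82 FPKM in KHM-5M GDC-0994 libraries, against 6.55, 6.97 and 6.15 FPKM in KHM-5M DMSO libraries. All 3 treated libraries lay below all 3 vehicle libraries, for a log2 fold change of -0.86 ± 0.16 (SE, edgeR adjusted p = 0.000206). NDUFAF2 (ENSG00000164182, chromosome 5, 60945129 to 61153037), a relative of the subunit NDUFA12 that attaches to a late intermediate, had 34.8, 30.4 and 28.8 FPKM in KHM-5M GDC-0994 libraries, against 57.4, 53.9 and 51.7 FPKM in KHM-5M DMSO libraries, a log2 fold change of -0.82 ± 0.10, edgeR adjusted p = 2.95e-06. NDUFAF8 (ENSG00000224877, chromosome 17, 81239239 to 81241281), which stabilises NDUFAF5, had 14.8, 11.7 and 11.5 FPKM in KHM-5M GDC-0994 libraries, against 22.1, 20.2 and 21.7 FPKM in KHM-5M DMSO libraries, a log2 fold change of -0.78 ± 0.11, edgeR adjusted p = 2.47e-05. For both genes the groups were separate.

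NDUFAF6, needed for an early step of assembly, had 2.22, 2.27 and 2.28 FPKM in KHM-5M GDC-0994 libraries, against 3.76, 3.62 and 3.05 FPKM in KHM-5M DMSO libraries (log2 fold change -0.65 ± 0.10, edgeR adjusted p = 4.93e-05). NDUFAF5, which hydroxylates an arginine of the core subunit NDUFS7, had 1.70, 1.84 and 1.67 FPKM in KHM-5M GDC-0994 libraries, against 2.37, 2.37 and 2.08 FPKM in KHM-5M DMSO libraries (log2 fold change -0.42 ± 0.13, edgeR adjusted p = 0.0144). Both pairs of groups were again separate, at low levels, but the call of NDUFAF5 was lost without KHM-5M GDC-0994 replicate 3, DMSO replicate 1 or DMSO replicate 2 (adjusted p up to 0.0654). NDUFAF7, a methyltransferase, had 3.38, 3.05 and 3.36 FPKM in KHM-5M GDC-0994 libraries, against 2.41, 2.51 and 2.93 FPKM in KHM-5M DMSO libraries, all 3 treated libraries being the higher ones. Its rise of 0.29 ± 0.11, edgeR adjusted p = 0.0445 was lost without KHM-5M GDC-0994 replicate 1 (adjusted p = 0.1), KHM-5M GDC-0994 replicate 3 (adjusted p = 0.0748), KHM-5M DMSO replicate 1 (adjusted p = 0.119) or KHM-5M DMSO replicate 2 (adjusted p = 0.0971). NDUFAF3, the factor nearest to no change, had 26.3, 25.3 and 25.0 FPKM in KHM-5M GDC-0994 libraries, against 22.6, 22.8 and 21.8 FPKM in KHM-5M DMSO libraries (log2 fold change 0.16 ± 0.075, 95% interval -0.012 to 0.33). The falls of NDUFAF2, NDUFAF4, NDUFAF6 and NDUFAF8 were called in all 20 alternative analyses.

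Among complex I core subunits, which carry the flavin and iron-sulfur centres, 2 of 7 fell (28.6%, beside 25.1% of all genes) and none rose. NDUFV1, which binds the flavin and NADH, had 31.3, 26.4 and 25.5 FPKM in KHM-5M GDC-0994 libraries, against 36.5, 34.8 and 36.2 FPKM in KHM-5M DMSO libraries (log2 fold change -0.40 ± 0.093, edgeR adjusted p = 0.00187). NDUFS3 had 16.3, 14.6 and 15.8 FPKM in KHM-5M GDC-0994 libraries, against 20.2, 19.2 and 19.9 FPKM in KHM-5M DMSO libraries (log2 fold change -0.37 ± 0.071, edgeR adjusted p = 0.000323). The treated libraries were below the vehicle libraries for both genes. NDUFS7, the core subunit next to the coenzyme Q site, was the nearest to 0 at -0.043 ± 0.13 (95% interval -0.34 to 0.25).

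Of 29 tested other subunits of complex I, 9 fell (31.0%) and 1 rose (3.45%), beside 25.1% and 24.6% of all genes (median log2 fold change -0.13). NDUFS6, a zinc-binding subunit joined late to the NADH-oxidising arm, had 57.7, 48.6 and 45.1 FPKM in KHM-5M GDC-0994 libraries, against 80.7, 74.0 and 76.7 FPKM in KHM-5M DMSO libraries (log2 fold change -0.64 ± 0.14, edgeR adjusted p = 0.000888). NDUFA6, a subunit of the LYR family, had 10.4, 9.19 and 8.54 FPKM in KHM-5M GDC-0994 libraries, against 12.9, 12.2 and 12.7 FPKM in KHM-5M DMSO libraries (log2 fold change -0.45 ± 0.11, edgeR adjusted p = 0.00367). NDUFAB1, the mitochondrial acyl carrier protein to which LYR proteins bind, had 45.3, 40.2 and 37.5 FPKM in KHM-5M GDC-0994 libraries, against 55.2, 51.1 and 52.2 FPKM in KHM-5M DMSO libraries (log2 fold change -0.39 ± 0.076, edgeR adjusted p = 0.000406). In all 3 cases the treated libraries were the lower ones and the groups did not meet. NDUFB5, a membrane arm subunit, was the single riser, with 11.4, 11.2 and 10.3 FPKM in KHM-5M GDC-0994 libraries, against 8.72, 8.89 and 8.22 FPKM in KHM-5M DMSO libraries (log2 fold change 0.32 ± 0.084, edgeR adjusted p = 0.00435). NDUFS4, an accessory subunit, had 68.8, 65.4 and 63.2 FPKM in KHM-5M GDC-0994 libraries, against 66.8, 64.6 and 61.7 FPKM in KHM-5M DMSO libraries (log2 fold change 0.0047 ± 0.088, 95% interval -0.20 to 0.21), with mixed libraries. The other 6 genes that fell were NDUFA9, NDUFB1, NDUFB6, NDUFB9, NDUFC1 and NDUFV3, with log2 fold changes of -0.32 to -0.24. Without KHM-5M GDC-0994 replicate 3 none of these 6 was called, and their highest adjusted p over all alternatives was 0.0631 to 0.242. NDUFA9 shares 67.9% of its coding bases with another gene.

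In complex II, which is also the succinate dehydrogenase of the tricarboxylic acid cycle, the subunits did not move together. SDHA, the flavoprotein that oxidises succinate, had 27.2, 25.2 and 23.2 FPKM in KHM-5M GDC-0994 libraries, against 33.4, 32.1 and 31.3 FPKM in KHM-5M DMSO libraries (log2 fold change -0.38 ± 0.079, edgeR adjusted p = 0.000676). SDHB, the iron-sulfur subunit, had 35.1, 30.0 and 27.3 FPKM in KHM-5M GDC-0994 libraries, against 38.2, 36.8 and 38.2 FPKM in KHM-5M DMSO libraries (log2 fold change -0.32 ± 0.093, edgeR adjusted p = 0.00911), and that call was lost without KHM-5M GDC-0994 replicate 3 (adjusted p = 0.105), KHM-5M DMSO replicate 1 (adjusted p = 0.0576) or KHM-5M DMSO replicate 3 (adjusted p = 0.0565). Treated libraries were lower for both catalytic subunits. The membrane anchor SDHC had 11.9, 11.8 and 11.8 FPKM in KHM-5M GDC-0994 libraries, against 9.86, 9.62 and 9.68 FPKM in KHM-5M DMSO libraries, higher in every treated library (log2 fold change 0.26 ± 0.068, edgeR adjusted p = 0.0045, against 0.0535 with the GC and length trend removed). The other anchor, SDHD, had 25.0, 25.1 and 21.4 FPKM in KHM-5M GDC-0994 libraries, against 25.1, 25.5 and 24.4 FPKM in KHM-5M DMSO libraries (log2 fold change -0.10 ± 0.094, not called), and it shares 47.7% of its coding bases.

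In complex III, 3 of 10 genes fell (30%, beside 25.1% of all genes) and none rose. CYC1 (ENSG00000179091, chromosome 8, 144095027 to 144097525), the cytochrome c1 that hands electrons to cytochrome c, had 179, 162 and 144 FPKM in KHM-5M GDC-0994 libraries, against 248, 238 and 241 FPKM in KHM-5M DMSO libraries. Its highest treated library was well below its lowest vehicle library, and the log2 fold change was -0.61 ± 0.092 (edgeR adjusted p = 3.17e-05). UQCRFS1, the Rieske iron-sulfur protein, had 33.9, 29.6 and 30.4 FPKM in KHM-5M GDC-0994 libraries, against 39.4, 37.6 and 39.8 FPKM in KHM-5M DMSO libraries (log2 fold change -0.34 ± 0.077, edgeR adjusted p = 0.00148). UQCRC1, a core protein, had 97.6, 87.5 and 78.7 FPKM in KHM-5M GDC-0994 libraries, against 107, 101 and 101 FPKM in KHM-5M DMSO libraries (log2 fold change -0.26 ± 0.071, edgeR adjusted p = 0.00587), a call lost without KHM-5M GDC-0994 replicate 3 (adjusted p = 0.0908) or KHM-5M DMSO replicate 1 (adjusted p = 0.0682). All 3 genes were separate between the groups. Summed over complex III, nuclear levels were 667 ± 59.5 FPKM in KHM-5M GDC-0994 and 800.3 ± 16.3 FPKM in KHM-5M DMSO (SD, n = 3 each). UQCRH and its near-identical copy UQCRHL cannot be told apart with certainty, and neither was called.

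Complex IV had the highest median of the nuclear classes, 0.059. In it 2 genes were called higher (15.4%) and 1 lower (7.69%), beside 24.6% and 25.1% of all genes. NDUFA4L2 (ENSG00000185633, chromosome 12, 57234903 to 57240715), a paralogue of NDUFA4 known as a target of the hypoxia factor HIF1A, had 2.44, 2.69 and 2.78 FPKM in KHM-5M GDC-0994 libraries, against 1.46, 1.20 and 1.50 FPKM in KHM-5M DMSO libraries. All treated libraries were above all vehicle libraries, and the log2 fold change of 0.90 ± 0.19 (edgeR adjusted p = 0.000995) was the largest rise among the 103 genes. NDUFA4 itself had 43.5, 37.5 and 36.0 FPKM in KHM-5M GDC-0994 libraries, against 35.1, 35.1 and 34.3 FPKM in KHM-5M DMSO libraries (log2 fold change 0.13 ± 0.074, not called). COX7A2L, which joins complexes III and IV in supercomplexes, had 19.0, 18.0 and 16.0 FPKM in KHM-5M GDC-0994 libraries, against 14.8, 13.9 and 14.8 FPKM in KHM-5M DMSO libraries (log2 fold change 0.25 ± 0.072, edgeR adjusted p = 0.00766). Its relative COX7A2, the common isoform, had 61.0, 55.1 and 52.2 FPKM in KHM-5M GDC-0994 libraries, against 54.3, 50.2 and 48.5 FPKM in KHM-5M DMSO libraries (log2 fold change 0.11 ± 0.076, not called). These paralogues thus differed in their calls, while the difference between their changes was not tested. COX5A, a subunit on the matrix side, had 86.0, 76.9 and 67.2 FPKM in KHM-5M GDC-0994 libraries, against 99.2, 98.3 and 91.5 FPKM in KHM-5M DMSO libraries (log2 fold change -0.36 ± 0.13, edgeR adjusted p = 0.0307), a fall that was lost without KHM-5M GDC-0994 replicate 2 (adjusted p = 0.0747), KHM-5M GDC-0994 replicate 3 (adjusted p = 0.197), KHM-5M DMSO replicate 1 (adjusted p = 0.127), KHM-5M DMSO replicate 2 (adjusted p = 0.116) or KHM-5M DMSO replicate 3 (adjusted p = 0.0707). COX4I1, COX6A1, COX6B1, COX7B and COX8A were not called, with log2 fold changes of -0.27 to 0.059.

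In complex V, 3 of 19 tested genes fell (15.8%) and 1 rose (5.26%), beside 25.1% and 24.6% of all genes (median log2 fold change -0.16). The genes ATP5MC1, ATP5MC2 and ATP5MC3 encode the same mature subunit c, the ring that turns as protons pass. ATP5MC1 (ENSG00000159199, chromosome 17, 48892765 to 48895871), the gene with the cyclic AMP response element printed above, had 29.9, 27.8 and 26.0 FPKM in KHM-5M GDC-0994 libraries, against 46.1, 40.1 and 39.3 FPKM in KHM-5M DMSO libraries (log2 fold change -0.61 ± 0.079, edgeR adjusted p = 6.27e-06). ATP5MC3 had 36.5, 33.4 and 31.1 FPKM in KHM-5M GDC-0994 libraries, against 42.4, 43.1 and 40.5 FPKM in KHM-5M DMSO libraries (log2 fold change -0.35 ± 0.12, edgeR adjusted p = 0.021), lost without KHM-5M GDC-0994 replicate 2 (adjusted p = 0.0619), KHM-5M GDC-0994 replicate 3 (adjusted p = 0.132), KHM-5M DMSO replicate 1 (adjusted p = 0.0888), KHM-5M DMSO replicate 2 (adjusted p = 0.0971) or KHM-5M DMSO replicate 3 (adjusted p = 0.0613). Both fell without overlap. ATP5MC2, the gene with the highest level of the 3, had 81.8, 78.9 and 74.9 FPKM in KHM-5M GDC-0994 libraries, against 69.2, 72.0 and 69.8 FPKM in KHM-5M DMSO libraries, every treated library being above the vehicle ones, but its log2 fold change of 0.13 ± 0.15 was not called (edgeR adjusted p = 0.502). ATP5F1D, the delta subunit of the central stalk, had 57.7, 57.4 and 47.2 FPKM in KHM-5M GDC-0994 libraries, against 67.7, 66.5 and 69.1 FPKM in KHM-5M DMSO libraries (log2 fold change -0.35 ± 0.11, edgeR adjusted p = 0.0142), lost without KHM-5M GDC-0994 replicate 3 (adjusted p = 0.127), KHM-5M DMSO replicate 1 (adjusted p = 0.0603) or KHM-5M DMSO replicate 3 (adjusted p = 0.0715). ATP5S rose by 0.35 ± 0.10, edgeR adjusted p = 0.00693, at 1.33 to 2.05 FPKM in KHM-5M, and ATP5F1A, a subunit of the catalytic hexamer, was nearest to 0 at -0.012 ± 0.073 (95% interval -0.18 to 0.16).

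The mitochondrially encoded genes mostly rose in KHM-5M. MT-ND4L, a complex I subunit, had 2261, 2086 and 2554 FPKM in KHM-5M GDC-0994 libraries, against 1580.1, 1447 and 1750.0 FPKM in KHM-5M DMSO libraries. All treated libraries were higher, with a log2 fold change of 0.50 ± 0.093 (edgeR adjusted p = 0.000268). MT-ND5, the largest mitochondrial subunit of complex I, had 865, 818 and 965 FPKM in KHM-5M GDC-0994 libraries, against 602, 553 and 731 FPKM in KHM-5M DMSO libraries (log2 fold change 0.46 ± 0.095, edgeR adjusted p = 0.000642). MT-CO1, the catalytic subunit of complex IV, had 6779.5, 6430.3 and 7565 FPKM in KHM-5M GDC-0994 libraries, against 5029, 4499.6 and 5580.0 FPKM in KHM-5M DMSO libraries (log2 fold change 0.43 ± 0.082, edgeR adjusted p = 0.000311). MT-CYB, the cytochrome b of complex III, had 2207, 2197 and 2377 FPKM in KHM-5M GDC-0994 libraries, against 1777, 1637 and 1870.1 FPKM in KHM-5M DMSO libraries (log2 fold change 0.33 ± 0.10, edgeR adjusted p = 0.0121). None of these genes had overlapping groups. The complex I genes MT-ND1, MT-ND2, MT-ND4 and MT-ND6 also rose, by 0.44, 0.31, 0.33 and 0.42 on the log2 scale. MT-ND6 is the only one of the 13 genes read from the other strand of the circle. The libraries did not mark the strand, so its counts cannot be separated from RNA of the opposite strand. The call of MT-ND4 was lost without KHM-5M GDC-0994 replicate 3 (adjusted p = 0.0607) or KHM-5M DMSO replicate 2 (adjusted p = 0.065). MT-CO2, MT-CO3, MT-ATP6 and MT-ND3 were not called, at 0.086, 0.18, -0.018 and 0.021. The genes MT-ND4L and MT-ND3 are shorter than the 370 to 420 bases of the fragments selected for the libraries. Fragments that cover them therefore also reach into neighbouring sequence, and the part of this in their values was not tested.

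MT-ATP8 (ENSG00000228253, chromosome MT, 8366 to 8572), a small subunit of complex V, was the single mitochondrial gene that fell in KHM-5M. It had 40.3, 33.5 and 41.3 FPKM in KHM-5M GDC-0994 libraries, against 72.5, 59.7 and 83.4 FPKM in KHM-5M DMSO libraries, and the treated libraries were all lower (log2 fold change -0.93 ± 0.15, edgeR adjusted p = 5.14e-05). In TTA-1 it had 91.4, 95.0 and 105 FPKM in TTA-1 GDC-0994 libraries, against 45.0, 52.0 and 58.3 FPKM in TTA-1 DMSO libraries, and there the treated libraries were all higher (log2 fold change 0.91 ± 0.14, edgeR adjusted p = 0.00137). The difference between the lines was -1.84 ± 0.20 (edgeR adjusted p = 2.78e-06), and all 3 calls held in every alternative analysis. MT-ATP6, which overlaps it by 46 bases and is read from the same RNA, had a log2 fold change of -0.018 in KHM-5M and 0.13 in TTA-1, neither called. The MT-ATP8 gene is 207 bases long, shorter than the 370 to 420 bases of the fragments selected for the libraries, so fragments that cover it also reach into neighbouring sequence. Its level was 33.5 to 105.0 FPKM, whereas that of MT-ATP6 was 2663 to 5343 FPKM. The part of fragment length and assignment in this result was not tested. The 13 mitochondrial genes also have 2 to 45 pseudogene rows each in the annotation, whose reads could have been shared with them.

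**Figure D3:**
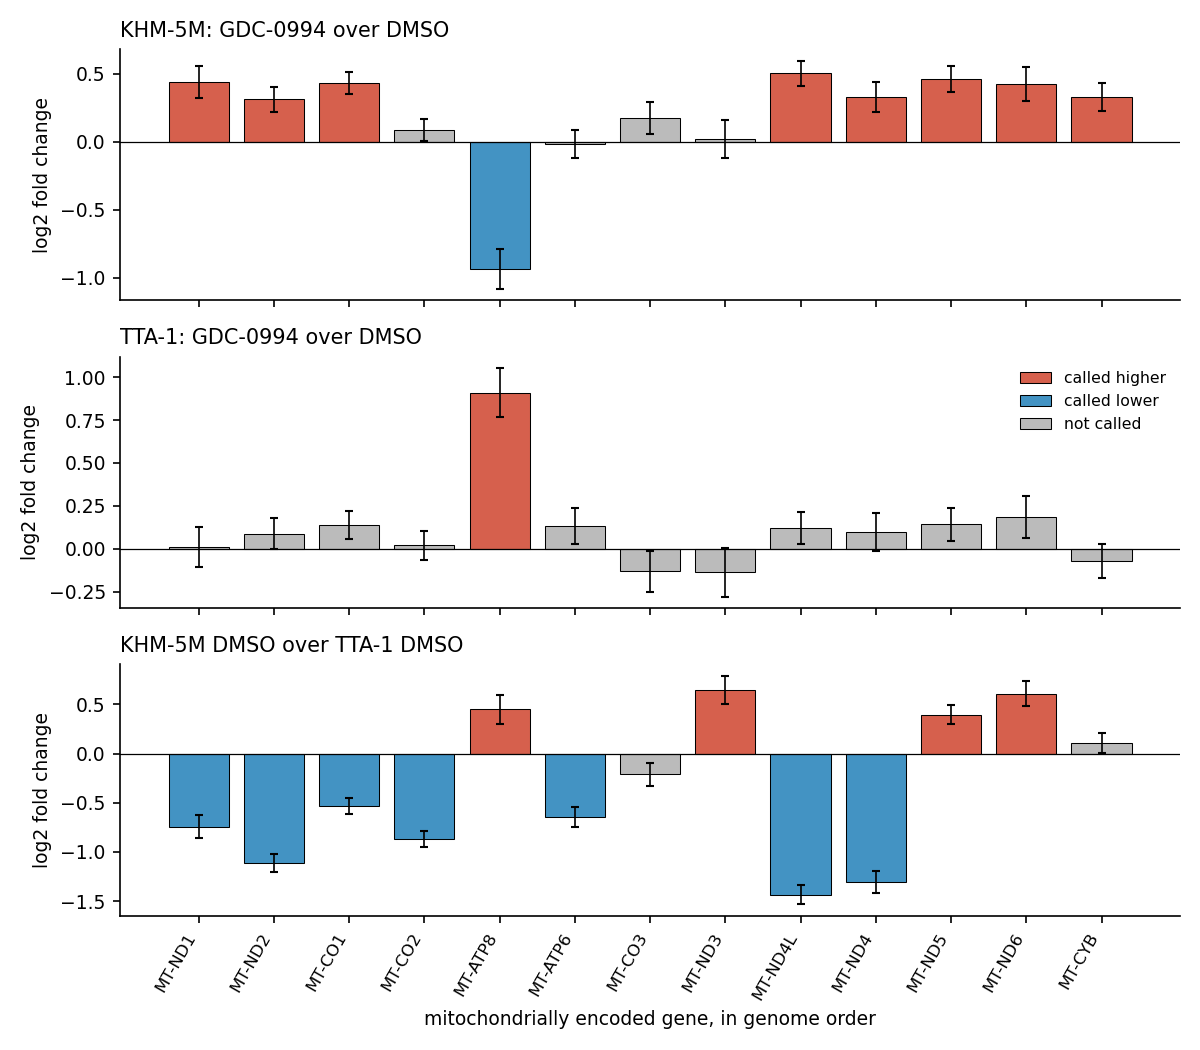
Log2 fold change ± SE of the 13 mitochondrially encoded genes in their order along the mitochondrial genome, for GDC-0994 over DMSO in KHM-5M and in TTA-1, and for KHM-5M DMSO over TTA-1 DMSO; red and blue bars were called higher or lower and grey bars were not called. MT-ATP8 is at -0.93 in KHM-5M and 0.91 in TTA-1, while the other 12 genes lie between -0.018 and 0.50 in KHM-5M and between -0.14 and 0.19 in TTA-1.

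In TTA-1, 1 respiratory gene rose (MT-ATP8) and 3 fell, of 103 tested, where 1.18% of all genes rose and 2.24% fell. Those that fell were NDUFS7, COX8A and ATP5ME, subunits of complexes I, IV and V. ATP5ME, a membrane subunit, had 3.76, 3.15 and 1.58 FPKM in TTA-1 GDC-0994 libraries, against 8.29, 4.71 and 6.35 FPKM in TTA-1 DMSO libraries (log2 fold change -1.17 ± 0.26, edgeR adjusted p = 0.0196). COX8A had 80.2, 76.5 and 65.4 FPKM in TTA-1 GDC-0994 libraries, against 129.7, 89.0 and 104 FPKM in TTA-1 DMSO libraries (log2 fold change -0.53 ± 0.12, edgeR adjusted p = 0.0166). NDUFS7 had 3.52, 3.44 and 2.81 FPKM in TTA-1 GDC-0994 libraries, against 5.77, 3.85 and 4.87 FPKM in TTA-1 DMSO libraries (log2 fold change -0.56 ± 0.13, edgeR adjusted p = 0.0234). The treated libraries were the lower ones in each case, with the lowest vehicle library being TTA-1 DMSO replicate 2. All 3 calls were lost without TTA-1 GDC-0994 replicate 2, TTA-1 GDC-0994 replicate 3, TTA-1 DMSO replicate 1 or TTA-1 DMSO replicate 3, with adjusted p of 0.0535 to 0.141, and without TTA-1 DMSO replicate 2 the count of falling genes was 20. These genes share 44.0% to 55.1% of their coding bases with other genes, NDUFS7 with an antisense gene that unstranded reads cannot separate.

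The spread among TTA-1 DMSO libraries was wide for several complex IV genes, and their intervals are correspondingly wide. COX6B1, which joins the monomers of complex IV, had 57.1, 39.8 and 30.9 FPKM in TTA-1 GDC-0994 libraries, against 97.1, 35.5 and 72.1 FPKM in TTA-1 DMSO libraries, and the groups overlapped, with TTA-1 DMSO replicate 2 far below the other vehicle libraries (log2 fold change -0.67 ± 0.25, 95% interval -1.26 to -0.089). COX6A1 had 10.3, 6.95 and 5.48 FPKM in TTA-1 GDC-0994 libraries, against 21.9, 6.63 and 16.8 FPKM in TTA-1 DMSO libraries (log2 fold change -0.99 ± 0.30, 95% interval -1.67 to -0.30). Neither COX6B1 nor COX6A1 was called, and the intervals are not adjusted for the number of genes tested. Of the complex I assembly factors, none was called, where 1.18% of all genes rose and 2.24% fell. Their median was 0.11, but 0.0032 without TTA-1 DMSO replicate 1 and 0.049 without TTA-1 GDC-0994 replicate 1. NDUFAF4 had 11.2, 11.0 and 10.9 FPKM in TTA-1 GDC-0994 libraries, against 8.63, 13.3 and 9.59 FPKM in TTA-1 DMSO libraries, and NDUFAF2 had 52.3, 48.8 and 46.7 FPKM in TTA-1 GDC-0994 libraries, against 59.4, 47.1 and 53.1 FPKM in TTA-1 DMSO libraries, both with overlapping groups. CYC1 had 140.1, 141 and 129 FPKM in TTA-1 GDC-0994 libraries, against 179.9, 137 and 152 FPKM in TTA-1 DMSO libraries, also overlapping. NDUFA4L2 was near its detection limit in TTA-1, with 0.0688 to 0.248 FPKM over the 6 libraries.

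**Figure D4:**
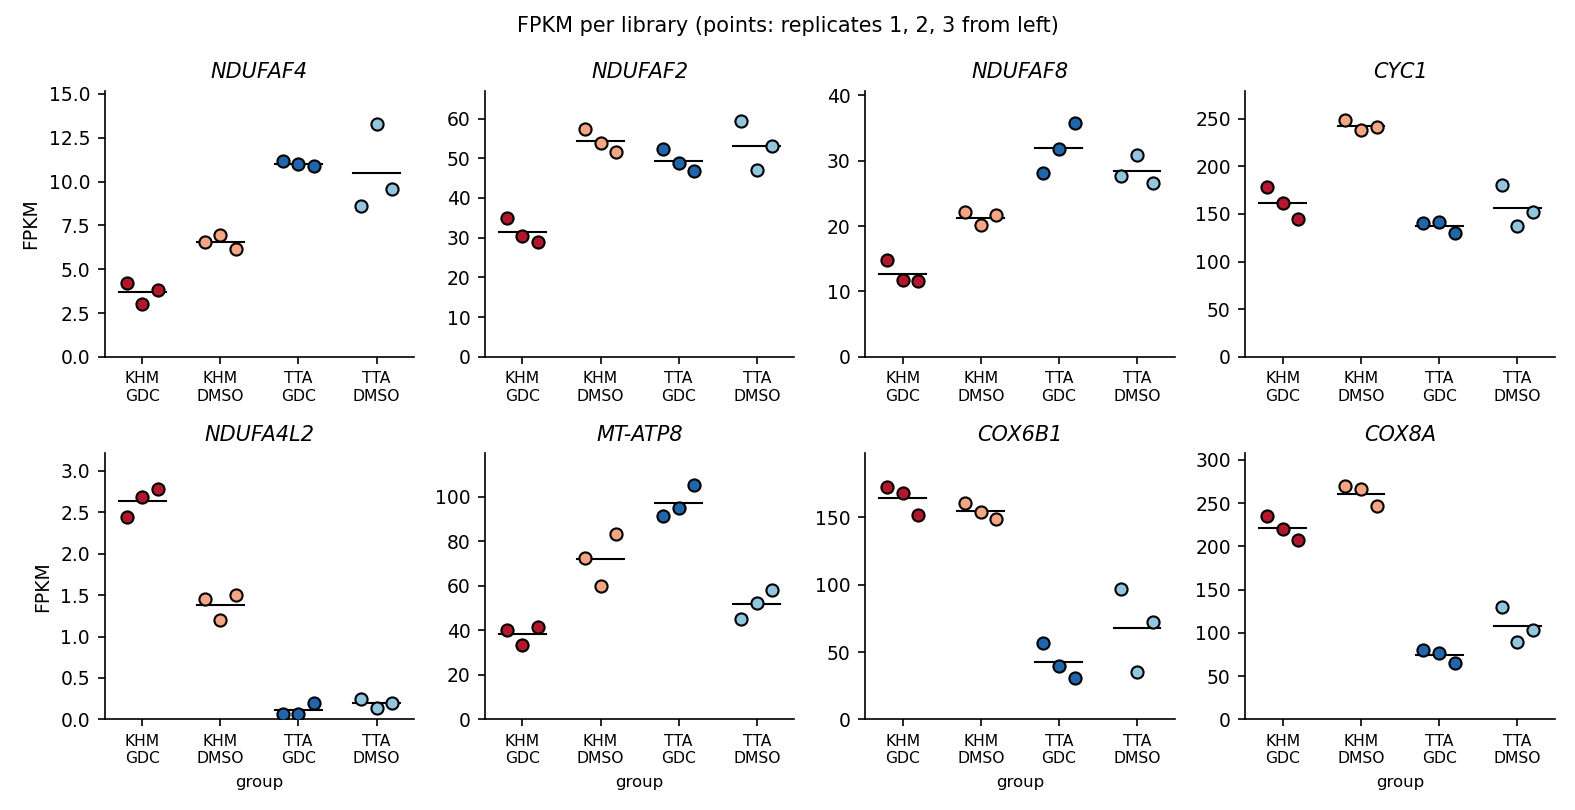
FPKM in each library, by group, for NDUFAF4, NDUFAF2, NDUFAF8, CYC1, NDUFA4L2, MT-ATP8, COX6B1 and COX8A; points are replicates 1 to 3 from left to right and horizontal lines are group means, each panel with its own axis from 0. NDUFAF4, NDUFAF2, NDUFAF8 and CYC1 are lower in all KHM-5M GDC-0994 libraries than in all KHM-5M DMSO libraries, and COX6B1 spreads between 35.5 and 97.1 FPKM in TTA-1 DMSO.

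The difference between the lines' responses was tested directly as an interaction. It was called for 23 of 103 genes, 6 with a higher and 17 with a lower log2 fold change in KHM-5M than in TTA-1, where 12.3% and 15.6% of all genes were called. Of the 8 assembly factors, 5 were called lower: NDUFAF8 at -0.95 ± 0.16, NDUFAF4 at -0.94 ± 0.21, NDUFAF6 at -0.80 ± 0.14, NDUFAF2 at -0.71 ± 0.14 and NDUFAF5 at -0.55 ± 0.19 (SE). The calls of the first 4 held in every alternative, and that of NDUFAF5 was lost in 17 of 25. NDUFA6 differed by -0.69 ± 0.15, edgeR adjusted p = 0.00261, ATP5MC1 by -0.52 ± 0.11, edgeR adjusted p = 0.00188 and NDUFS3 by -0.46 ± 0.10, edgeR adjusted p = 0.00235, also in every alternative. NDUFA4L2 was the only gene called higher in every alternative, at 1.71 ± 0.49, edgeR adjusted p = 0.0139, on the very low TTA-1 level given above. For the mitochondrial genes other than MT-ATP8, 2 of 12 differences were called, MT-CYB at 0.40 ± 0.14 and MT-ND4L at 0.38 ± 0.13. MT-CYB was lost without KHM-5M GDC-0994 replicate 2 (adjusted p = 0.0646), KHM-5M GDC-0994 replicate 3 (adjusted p = 0.0636), KHM-5M DMSO replicate 1 (adjusted p = 0.0558), KHM-5M DMSO replicate 2 (adjusted p = 0.0843) or TTA-1 DMSO replicate 3 (adjusted p = 0.0698), and MT-ND4L without KHM-5M GDC-0994 replicate 3 (adjusted p = 0.055), KHM-5M DMSO replicate 2 (adjusted p = 0.067) or TTA-1 GDC-0994 replicate 2 (adjusted p = 0.0502). The rise of most mitochondrial genes is therefore called in KHM-5M and not in TTA-1, but for most of them the lines were not shown to differ. The counts rest on single libraries, with 3 to 23 genes higher and 9 to 21 lower when 1 library was left out. Scaling also changed the split, with 11 higher and 16 lower under DESeq2 size factors or library totals and 12 higher and 14 lower under upper quartile scaling. The median of the nuclear genes was -0.034, and it changed sign among the alternatives with all libraries (-0.049 to 0.033). With 1 library left out it ranged from -0.092 without KHM-5M GDC-0994 replicate 1 to 0.069 without KHM-5M GDC-0994 replicate 3, and it was also above 0 without KHM-5M DMSO replicate 1 or 2, TTA-1 GDC-0994 replicate 1 or TTA-1 DMSO replicate 2.

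Between the lines under DMSO, nuclear and mitochondrial genes leaned in opposite directions. KHM-5M DMSO was higher than TTA-1 DMSO for 49 and lower for 21 of 90 nuclear genes (54.4% and 23.3%, median log2 fold change 0.31), and higher for 4 and lower for 7 of 13 mitochondrial genes (median -0.53). Of all genes tested, 39.6% were higher and 36.8% lower. The KHM-5M DMSO libraries serve here and as the vehicle in the KHM-5M treatment comparison. GC correction moved all of these values. With the GC and length trend removed, the median of all genes went from 0.032 to -0.22, a shift of -0.25. The nuclear median was then 0.065 and the mitochondrial median -0.49, and 46 respiratory genes were higher and 36 lower. In both fits the nuclear median lay above that of all genes and the mitochondrial median below it.

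**Figure D5:**
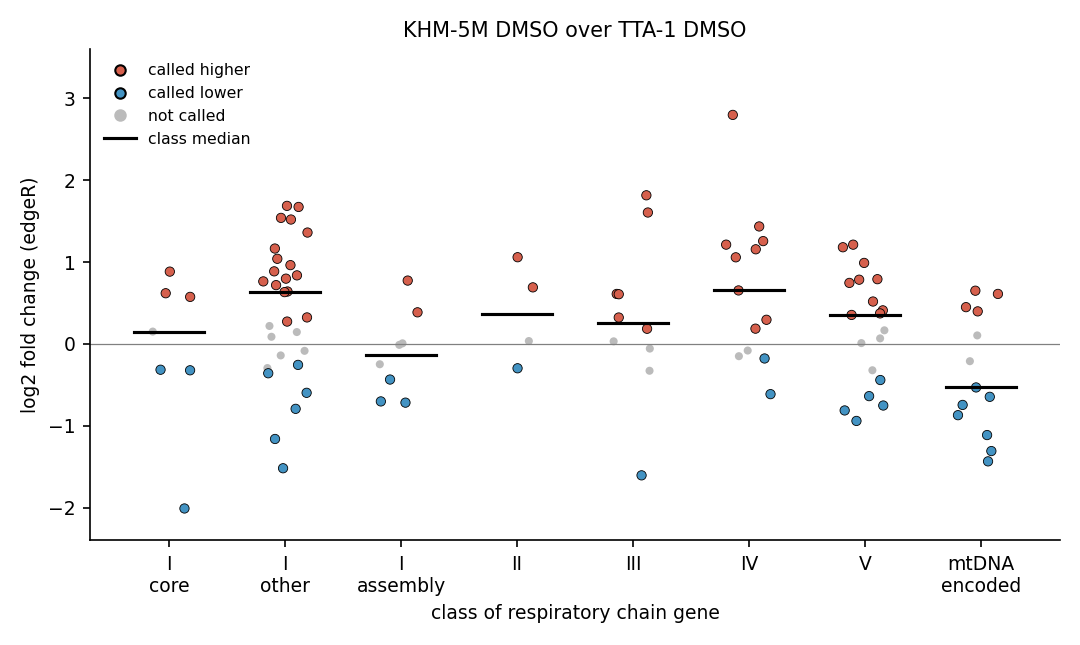
Log2 fold change of KHM-5M DMSO over TTA-1 DMSO for each tested respiratory gene, by complex and genome; red and blue points were called higher or lower, grey points were not called, and horizontal bars mark class medians. The medians are 0.65 for complex IV and 0.63 for the other complex I subunits, against -0.53 for the mitochondrially encoded genes.

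The nuclear genes of complex IV had the highest class median (0.65), with 9 of 13 higher (69.2%, beside 39.6% of all genes). COX6C had 64.8, 61.1 and 61.5 FPKM in KHM-5M DMSO libraries, against 24.7, 20.4 and 23.0 FPKM in TTA-1 DMSO libraries (log2 fold change 1.44 ± 0.082, edgeR adjusted p = 7e-11). COX8A had 269.7, 267 and 247 FPKM in KHM-5M DMSO libraries, against 129.7, 89.0 and 104 FPKM in TTA-1 DMSO libraries (log2 fold change 1.26 ± 0.11, edgeR adjusted p = 2.66e-08). Every KHM-5M library was higher in both cases. NDUFA4L2 had 1.46, 1.20 and 1.50 FPKM in KHM-5M DMSO libraries, against 0.248, 0.137 and 0.195 FPKM in TTA-1 DMSO libraries (log2 fold change 2.80 ± 0.28, edgeR adjusted p = 9.28e-08), and its paralogue NDUFA4 was lower in KHM-5M, with 35.1, 35.1 and 34.3 FPKM in KHM-5M DMSO libraries, against 52.4, 55.9 and 49.3 FPKM in TTA-1 DMSO libraries (log2 fold change -0.61 ± 0.074, edgeR adjusted p = 9.62e-07). The pair thus ran in opposite directions, in every alternative analysis. COX7A2 was also lower, by a small -0.18 ± 0.076, edgeR adjusted p = 0.0425, which was lost without KHM-5M DMSO replicate 2 (adjusted p = 0.128), KHM-5M DMSO replicate 3 (adjusted p = 0.178), TTA-1 DMSO replicate 1 (adjusted p = 0.188) or TTA-1 DMSO replicate 3 (adjusted p = 0.0522) and in all 14 alternatives that kept every library. The sum over nuclear complex IV genes was 1058 ± 33.9 FPKM in KHM-5M DMSO and 693 ± 119 FPKM in TTA-1 DMSO (SD, n = 3 each).

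In complex I, 17 of 29 other subunits were higher (58.6%) and 6 lower (20.7%) in KHM-5M, beside 39.6% and 36.8% of all genes. NDUFA1, a small membrane subunit encoded on the X chromosome, had 96.4, 88.7 and 86.7 FPKM in KHM-5M DMSO libraries, against 43.2, 16.2 and 32.4 FPKM in TTA-1 DMSO libraries (log2 fold change 1.54 ± 0.23, edgeR adjusted p = 9.74e-06). NDUFA3 had 19.1, 17.9 and 19.7 FPKM in KHM-5M DMSO libraries, against 8.37, 2.75 and 6.35 FPKM in TTA-1 DMSO libraries (log2 fold change 1.67 ± 0.28, edgeR adjusted p = 4.36e-05). Both were separate between lines, with TTA-1 DMSO replicate 2 lowest. NDUFA6, the LYR subunit, was lower in KHM-5M, with 12.9, 12.2 and 12.7 FPKM in KHM-5M DMSO libraries, against 38.4, 31.1 and 37.0 FPKM in TTA-1 DMSO libraries (log2 fold change -1.52 ± 0.11, edgeR adjusted p = 1.19e-09), as was NDUFB11 at -1.16 ± 0.11, edgeR adjusted p = 6.34e-08. Of the core subunits, NDUFS1, which carries iron-sulfur clusters, was higher (0.88 ± 0.077, edgeR adjusted p = 1.5e-08). NDUFV1 was higher at 0.62 ± 0.094 but -0.11 with the GC trend removed, where the median of all genes was -0.22. NDUFV2 was lower at -2.01 ± 0.36 on 0.124 to 0.922 FPKM with 84.7% of its coding bases shared. Among assembly factors NDUFAF4, NDUFAF7 and NDUFAF8 were lower and NDUFAF5 and NDUFAF6 higher, from -0.72 to 0.77. Of these calls, only those of NDUFAF5 and NDUFAF7 held in every alternative.

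In complex II, SDHC was higher in KHM-5M, with 9.86, 9.62 and 9.68 FPKM in KHM-5M DMSO libraries, against 4.50, 4.83 and 4.45 FPKM in TTA-1 DMSO libraries (log2 fold change 1.06 ± 0.070, edgeR adjusted p = 4.19e-10), and SDHA was higher at 0.69 ± 0.080, edgeR adjusted p = 5.46e-07. SDHB was lower at -0.30 ± 0.093, edgeR adjusted p = 0.00802, a call lost under upper quartile scaling, library totals and limma with no filter (adjusted p up to 0.067), and SDHD was not called (0.035 ± 0.094). In complex III, UQCRB, known as the ubiquinone-binding protein, had 27.1, 25.4 and 24.9 FPKM in KHM-5M DMSO libraries, against 9.27, 4.53 and 7.83 FPKM in TTA-1 DMSO libraries (log2 fold change 1.82 ± 0.18, edgeR adjusted p = 6.51e-08). UQCR10 had 129, 125 and 119.9 FPKM in KHM-5M DMSO libraries, against 46.2, 35.6 and 39.2 FPKM in TTA-1 DMSO libraries (log2 fold change 1.61 ± 0.11, edgeR adjusted p = 7.08e-10), and the KHM-5M libraries were the higher ones for both. CYC1 was higher by 0.61 ± 0.092, edgeR adjusted p = 1.22e-05, but it was at -0.15 with the GC trend removed, where the median of all genes was -0.22. UQCR11 was lower at -1.61 ± 0.11, edgeR adjusted p = 4.56e-10, though all of its coding bases (100%) lie in exons of another gene.

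In complex V, the alpha and beta subunits of the catalytic hexamer diverged. ATP5F1A, the alpha subunit, had 51.9, 48.9 and 49.8 FPKM in KHM-5M DMSO libraries, against 23.6, 27.8 and 23.3 FPKM in TTA-1 DMSO libraries (log2 fold change 0.99 ± 0.074, edgeR adjusted p = 2.14e-09). ATP5F1B, the beta subunit with which it forms the hexamer, had 524, 522 and 503 FPKM in KHM-5M DMSO libraries, against 859, 879 and 829 FPKM in TTA-1 DMSO libraries (log2 fold change -0.75 ± 0.058, edgeR adjusted p = 2.98e-09). The alpha message was higher and the beta message lower in all KHM-5M libraries, and both calls held in every alternative. ATP5F1C, the gamma subunit that turns inside the hexamer, was nearest to 0 at 0.010 ± 0.085 (95% interval -0.19 to 0.20). ATP5F1E, the epsilon subunit, was higher at 1.18 ± 0.087, edgeR adjusted p = 1.91e-09, and ATP5PB, the stator subunit b, was lower at -0.81 ± 0.061, edgeR adjusted p = 2.49e-09. Of the subunit c genes, ATP5MC3 was higher at 0.41 ± 0.12, and ATP5MC1 and ATP5MC2 were not called (0.17 ± 0.078 and 0.067 ± 0.15).

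The mitochondrial genes differed between the lines by gene, although they come from shared transcripts. MT-ND4L had 1580.1, 1447 and 1750.0 FPKM in KHM-5M DMSO libraries, against 3752, 4658 and 4302 FPKM in TTA-1 DMSO libraries (log2 fold change -1.44 ± 0.095, edgeR adjusted p = 4.36e-10). MT-ND4, whose message includes that of MT-ND4L, had 1604, 1397 and 1786 FPKM in KHM-5M DMSO libraries, against 3382, 4457 and 3837 FPKM in TTA-1 DMSO libraries (log2 fold change -1.31 ± 0.11, edgeR adjusted p = 1.28e-08). All KHM-5M libraries were lower for this pair. MT-ND3, which lies shortly before them, had 1734, 1606 and 1645 FPKM in KHM-5M DMSO libraries, against 1184, 830.2 and 1111 FPKM in TTA-1 DMSO libraries and was higher in KHM-5M (log2 fold change 0.65 ± 0.14, edgeR adjusted p = 0.000496). MT-ND5 and MT-ND6 were also higher, at 0.40 ± 0.095 and 0.61 ± 0.12, and MT-ATP8 at 0.45 ± 0.14, a call lost without KHM-5M DMSO replicate 3 (adjusted p = 0.0615). Here too, MT-ND6 counts cannot be separated from RNA of the opposite strand. MT-ND4L, MT-ND3 and MT-ATP8 are shorter than the selected fragments, and the part of fragment assignment in their values was not tested. MT-ND2, MT-CO2, MT-ND1, MT-ATP6 and MT-CO1 were lower, from -1.11 to -0.53, and MT-CO3 and MT-CYB were not called (-0.21 and 0.10). The other 10 calls held in every alternative analysis.

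Genes that work with the chain were counted from lists, chosen with earlier results of these data known. The lists were read from the main analysis only, so their counts and calls were not checked in the alternatives. Their counts in KHM-5M stand beside 25.1% of all genes that fell and 24.6% that rose. Of 45 tested assembly factors outside the rule, 17 fell (37.8%) and 6 rose (13.3%) in KHM-5M (median log2 fold change -0.19). CMC2, a complex IV assembly factor, fell (-1.09 ± 0.12), as did FOXRED1, a complex I factor (-0.89 ± 0.078), and SURF1, a complex IV factor, rose (0.39 ± 0.10), as did COA3 (0.30 ± 0.078). None of the 45 was called in TTA-1, where only 1.18% of all genes rose and 2.24% fell. In KHM-5M DMSO 27 were lower (60%) and 7 higher (15.6%) than in TTA-1 DMSO (median -0.43), where 36.8% of all genes were lower and 39.6% higher.

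Of 19 genes for keeping and transcribing mitochondrial DNA, 9 fell (47.4%) and 4 rose (21.1%) in KHM-5M. MGME1, a nuclease of mitochondrial DNA, fell (-1.38 ± 0.084), as did POLRMT, the mitochondrial RNA polymerase (-0.80 ± 0.089). TFAM, which packages and activates mitochondrial DNA, also fell (-0.54 ± 0.11), whereas MTERF4 rose (0.40 ± 0.091), as did RRM2B (0.47 ± 0.13). In TTA-1 POLRMT was the single gene called, at -0.33 ± 0.086 (5.26% of the list, beside 2.24% of all genes that fell). Of 18 genes for mitochondrial RNA processing and stability, 6 fell (33.3%, not far from the 25.1% of all genes), among them TBRG4 (-0.66 ± 0.072) and ELAC2 (-0.42 ± 0.065), which cuts transfer RNAs out of the long transcripts, and FASTKD1 rose (0.66 ± 0.15). Between the lines 14 of the 18 were lower (77.8%, against 36.8% of all genes) and 2 higher in KHM-5M DMSO (median -1.18), among them TRMT10C (-2.54 ± 0.091), a part of mitochondrial RNase P, and LRPPRC (-2.24 ± 0.14), which stabilises mitochondrial messages.

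Of 14 regulators of respiratory genes, 6 fell (42.9%) and 3 rose (21.4%) in KHM-5M, where 25.1% and 24.6% of all genes did. NRF1, an activator of many respiratory genes, fell (-0.98 ± 0.13), as did PPRC1, a growth-regulated coactivator (-0.86 ± 0.078). GABPA, the DNA-binding part of the ETS factor GABP, rose (0.66 ± 0.16), and its partner GABPB1 fell (-0.49 ± 0.12). HIF1A, the hypoxia factor, rose (0.58 ± 0.13), and so did the coactivator PPARGC1A, at very low levels of 0.126 ± 0.0662 FPKM in KHM-5M GDC-0994 and 0.0327 ± 0.0243 FPKM in KHM-5M DMSO (SD, n = 3 each). In TTA-1 MYC and ESRRA fell (-0.53 ± 0.089 and -0.44 ± 0.12), 14.3% of the list beside 2.24% of all genes. In the tricarboxylic acid cycle 6 of 13 genes fell in KHM-5M (46.2%), led by IDH3A (-0.84 ± 0.089) and fumarase, FH (-0.85 ± 0.094), and DLD rose (0.36 ± 0.087). Of 20 genes for electron carriers and coenzyme Q synthesis, 6 fell (30%, near the share of all genes) and 2 rose (10%), among them cytochrome c itself, CYCS (-0.65 ± 0.071), PDSS1 (-1.35 ± 0.16), which makes the tail of coenzyme Q, COQ10A (0.73 ± 0.13) and ETFDH (0.25 ± 0.10). Of 13 genes for adenine nucleotide and phosphate exchange, 5 fell (38.5%) and 3 rose (23.1%), with the outer membrane channels VDAC1 at -0.63 ± 0.063 and VDAC3 at -0.56 ± 0.072 and the carrier UCP2 at 1.60 ± 0.087. The creatine kinase CKMT1B also rose in KHM-5M and had the largest fitted change of the list, on 0.114 ± 0.0289 FPKM in KHM-5M GDC-0994 and 0.00547 ± 0.00947 FPKM in KHM-5M DMSO (SD, n = 3 each), too low for a fold change to be given. None of the last 3 lists had a gene called in TTA-1 except CKMT1A, higher at 0.72 ± 0.15. Of all genes tested in TTA-1, only 1.18% rose and 2.24% fell. CKMT1A is a near-identical copy of CKMT1B, so that the counts of both are uncertain.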

How the data were processed

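Poly-A RNA of 12 libraries was sequenced after random-primed synthesis with no step that marks the strand, per the labels' protocols. The submitters' processing notes list GRCh38, featureCounts 1.5.0-p3, HISAT2 2.0.5 and CASAVA, without roles or order. The authors deposited a table of raw counts per gene, which are whole and whose totals differ between libraries. They also deposited FPKM, which equal the count divided by gene length and by 1 library size at 0.975 to 1.08 times the total count, within a relative error of 4.85e-07. All 113 genes of the rule had the same start and end in GENCODE 29.

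Counts were fitted with edgeR 4.0.16 (R 4.3.3): filterByExpr with 4 groups (minimum count 10, minimum total 15), TMM scaling and quasi-likelihood tests in 1 model of 12 libraries with 8 residual degrees of freedom. The p-values were adjusted by Benjamini-Hochberg over 16218 genes and called below 0.05, and intervals are at 95%. FPKM served for levels only. The procedure was tested on counts simulated from the fitted model, with planted changes larger than those of the respiratory genes in KHM-5M. The simulation held no GC shift between libraries of a group. It therefore does not show how smaller changes or such shifts affect the calls.

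The genes and lists were chosen with earlier results of these data known. Named were all genes of complex II and of mitochondrial DNA, up to 3 called genes per direction and the gene nearest to 0 in other classes, isoform pairs, and up to 2 called genes per direction and list. Other genes named were chosen after their values were seen. For KHM-5M GDC-0994 the replicate numbers were taken from the titles, since another label gives all 3 the same column name. Replicate numbers were not used to pair libraries, since the labels do not say that a number marks a shared day or culture. Correlations of deviations across genes were -0.0453 to 0.0537 for the same number and -0.105 to 0.124 for different numbers. With 3 libraries per group, these correlations cannot show whether libraries were paired. Alternatives were DESeq2 1.42.0 size factors and Wald tests, other filters, only the groups compared, a replicate block, removal of length and GC trends, library sizes without mitochondrial genes, limma 3.58.1 on log2(FPKM + 1) and log2(FPKM + 0.1), and each library left out. Upper quartile scaling and library totals were added after seeing the data. No other columns of per-sample values were present. Counting intervals and floors cover counting error only.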

Additional observations from a re-analysis of the deposited data

Results flagged for a closer look

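For 23 genes the response to GDC-0994 differed between KHM-5M and TTA-1 in the edgeR interaction test, adjusted over all genes tested. The values below are differences of log2 fold changes, KHM-5M minus TTA-1. Among complex I subunits the difference was -0.69 for NDUFA6, -0.66 for NDUFB1, -0.60 for NDUFS6, -0.46 for NDUFS3, -0.41 for NDUFAB1, 0.52 for NDUFS7 and 0.43 for NDUFB2, which shares 45.2% of its coding bases with exons of other genes, mainly BRAF. Among the complex I assembly factors it was -0.95 for NDUFAF8, -0.94 for NDUFAF4, -0.80 for NDUFAF6, -0.71 for NDUFAF2 and -0.55 for NDUFAF5. In complexes II and III it was -0.43 for SDHA, -0.43 for CYC1 and -0.36 for UQCRFS1. NDUFA4L2 of complex IV stood at 1.71. In complex V it was 1.00 for ATP5ME, -0.57 for ATP5PO, -0.52 for ATP5MC1 and -0.43 for ATP5F1E. Among mitochondrial genes it was -1.84 for MT-ATP8, the largest of the 23 in size, 0.40 for MT-CYB and 0.38 for MT-ND4L. MT-ATP8 was also the only gene of the 23 called in both lines, in opposite directions. NDUFS7, NDUFB2, NDUFS6, NDUFAB1, NDUFAF5, SDHA, CYC1, UQCRFS1, ATP5ME, ATP5PO, ATP5F1E, MT-CYB and MT-ND4L lost the call without at least 1 single library.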

How the results depend on the processing

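In KHM-5M, 14 genes rose and 26 fell, and with only the groups compared 41 fell. Leaving out 1 library gave 12 to 14 rising and 14 to 33 falling genes. In TTA-1, 1 gene rose and 3 fell. The number that rose was 2 with the DESeq2 Wald test and 3 with no filter, and 1 to 5 without 1 library. The number that fell was 14 with no filter, 6 with the length and GC trend removed, 0 with only the groups compared and 0 with limma on log2(FPKM + 0.1) or on log2(FPKM + 1) with no filter, and 0 to 20 without 1 library. For the difference between lines, 6 genes were higher and 17 lower. The higher count was 11 with library totals, the Wald test of DESeq2 or its size factors, 12 with upper quartile scaling or with library sizes without mitochondrial genes, 15 with the trend removed, 19 with no filter and 3 with limma on log2(FPKM + 1) with no filter. The lower count was 11 with that limma fit. Without 1 library these counts ranged from 3 to 23 and from 9 to 21. Between the lines, counts of 53 and 28 ranged from 50 to 55 and from 25 to 31 without 1 library.

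Libraries with the same replicate number were treated as unpaired. A replicate block gave 13 and 26 genes in KHM-5M, 1 and 5 in TTA-1, 11 and 16 for the difference, and 46 and 25 between the lines. A replicate block with the length and GC trend removed gave 2 and 13 in TTA-1, 22 and 20 for the difference, and 39 and 37 between the lines.

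Among the single genes named, and counting only values called in the main or the alternative analysis, directions turned only between the lines. These turns came only with the trend removed. Sign changes of values called in neither analysis were not counted. The nuclear median of the difference between lines also turned, as given above. NDUFV1 stood at -0.11, NDUFS3 at -0.47 and CYC1 at -0.15 with the trend removed. The median of all genes was then -0.22, a shift of -0.25 from the main analysis. With the replicate block as well, NDUFS3 stood at -0.38, CYC1 at -0.072, UQCRH at -0.36, COX7A2 at 0.027, COX4I1 at -0.054 and ATP5MC2 at -0.49. In that fit the median of all genes was -0.20. The cause was not tested. A named value counted as kept if it held direction and call, or was called in neither analysis whatever its sign. Of 198 named values, 189 were kept with DESeq2 size factors and 177 with the trend removed. The number was 173 with limma on log2(FPKM + 1) with no filter, where 21 lost the call. It was 160 with the replicate block and trend removed, where 9 lost the call, 23 gained one and 6 turned. Between the lines, NDUFAF4, NDUFAF8 and ATP5MC3 were not called with the replicate block, nor NDUFAF4 and NDUFAF6 with the block and trend removed. Genes under 1 FPKM, such as NDUFA4L2 in TTA-1, are limited by depth.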
